A study of Mus musculus with 102 samples.

Results

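This report covers a single comparison at a single time of day: epidermal stem cells of adult mice under calorie restriction (CR) against those of adult mice on control diet, both collected at zeitgeber time (ZT) 8, which is 8 h after lights on. The label chose the arrays, with no measured value, and 7 arrays were members, 4 of CR mice and 3 of control mice, in a series of 53 arrays of adult and 49 of aged mice. All mice were Per1-Venus BAC transgenic animals on a C57B6/J background, in which a fluorescent protein reports Per1, and were 47 to 57 weeks old at collection. CR mice received 30% less food than the ad libitum intake for 25 weeks, after 3 weeks in which their food was cut by 10% per week, and control mice ate control diet ad libitum. Used beside them were the 46 arrays of adult mice at the 5 other times (ZT 0, 4, 12, 16 and 20) and, at ZT8, 4 arrays of CR mice and 3 of control mice aged 83 to 97 weeks. The labels name the cells and the tissue and no sort markers. Each array was hybridised with amplified RNA of 1 sample, and a level in bulk RNA cannot tell fewer expressing cells from less RNA per cell.

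The circadian clock is a feedback loop of transcription factors. CLOCK and ARNTL (BMAL1) bind E-boxes and switch on the Period and Cryptochrome genes, Ciart and the output factors Dbp, Tef and Hlf, and the Period and Cryptochrome proteins then repress their own activators. A further arm, in which ROR activators and NR1D repressors compete for the same element, drives Arntl and Nfil3. In the epidermis the clock is known to time DNA replication and oxidative metabolism of the stem cells over the day, and feeding is one of the signals that can shift clocks outside the brain.

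Levels below are deposited log2 values, differences are log2 level in CR minus log2 level in control, and ± beside a difference is its standard error (SE). Of 13383 genes tested with limma over all arrays, 0 (0%) passed a Benjamini-Hochberg adjusted p of 0.05, and the smallest adjusted p was 0.122, of Per2. At an unadjusted p under 0.05 there were 833 genes, where 669 would be the number from uniform p values; 532 of them (3.98% of all tested) were higher in CR and 301 (2.25%) were lower. In 842 genes (6.29%) every CR array lay above every control array, and in 379 (2.83%) every CR array lay below. The median difference over all genes was 0.05, and 59.9% of the differences were positive. With 4 arrays against 3 there are 35 ways to assign the arrays, so an exact two-sided rank-sum test of a single gene cannot go below p = 0.0571. As no gene passed the adjusted p, none is called, and what follows describes levels, differences and their spread.

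The medians of the 7 arrays lay between 5.52 and 5.61, and Pearson's r between pairs of arrays over the tested genes was 0.965 to 0.991. The SD over genes of each array's deviation from its group mean, scaled for the group size, was 0.216 to 0.292 log2 units in CR and 0.183 to 0.345 in control arrays, narrowest in control replicate 2 and widest in control replicate 1. The basal keratinocyte genes Krt5, Krt14, Itga6 and Trp63 were far above the filter on dim genes, and Krt14 averaged 12.42 in CR and 12.46 in control arrays. Of 18 listed markers of hair follicle bulge stem cells, 14 were above that filter. Among them Krt15, which the basal list also holds, Cxcl14 and Sox9 averaged 11.88, 10.96 and 7.82 in CR arrays. Their control averages were 11.74, 10.92 and 8.15. Cd34 and Lgr5, of the same list, were under the filter. Xist, which coats the inactive X chromosome, was above the average of 3 Y-linked genes in 3 of 4 CR and 2 of 3 control arrays, and the labels give no sex. It was below that average in CR replicate 1 (5.00 against 7.61) and in control replicate 3 (4.45 against 7.58).

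On the repressor side of the clock, Per2 and Ciart were higher in every CR array. Per2, a Period repressor, had levels of 8.42, 8.32, 8.28 and 7.57 in CR arrays, against 7.07, 7.42 and 7.07 in control arrays. All CR arrays were above all control arrays, with CR replicate 4 nearest to them. The difference was 0.96 ± 0.20, a 1.94-fold higher level in CR (limma, unadjusted p = 9.09e-06, adjusted p = 0.122), and a further Per2 probe set differed by 1.14. Without CR replicate 4 the difference was 1.15 and the limma adjusted p was 0.0059, and no other single array left out brought Per2 past the threshold. Its adjusted p was 0.433 and 0.254 without CR replicates 1 and 3. Without control replicates 2 and 3 it was 0.146 and 0.598. Ciart, which represses CLOCK and ARNTL, read 7.52, 7.45, 7.96 and 8.12 in CR arrays, against 7.37, 7.31 and 6.81 in control arrays. Here the lowest CR array lay just above the highest control array, and the difference was 0.60 ± 0.17 (limma adjusted p = 0.517). Per3 averaged 9.01 ± 0.38 in CR (SD, n = 4) and 8.42 ± 0.13 in control (SD, n = 3), with overlapping groups. Per1, whose reporter the mice carry, differed by 0.24 ± 0.26, Cry2 by 0.23 ± 0.21 and Cry1 by -0.24 ± 0.39, all with overlap.

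**Figure D1:**
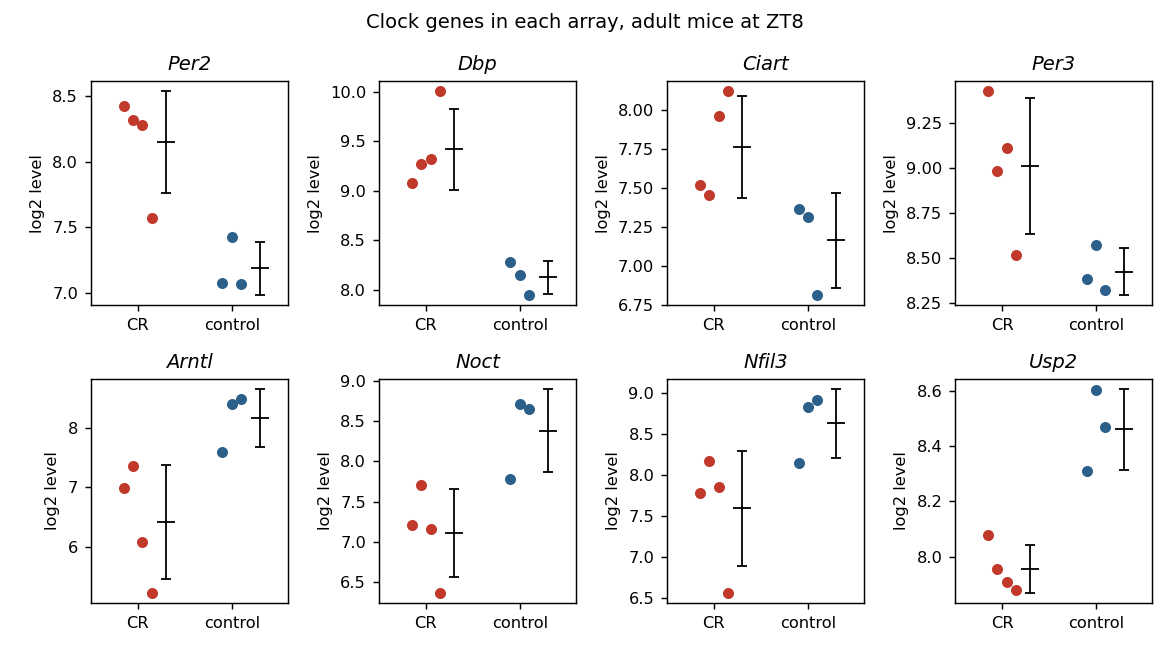
Log2 level of 8 clock genes in each array of adult mice at ZT8, CR on the left and control on the right of each panel; points are arrays (4 CR, 3 control), and bars beside them are the mean ± SD. Per2, Dbp and Ciart lie higher in every CR array, Arntl, Noct and Usp2 lie lower in every CR array, and the groups overlap for Per3 and Nfil3.

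On the activator side the order was the opposite of that of Per2 and Ciart. Arntl, which pairs with CLOCK, read 6.99, 7.36, 6.08 and 5.22 in CR arrays, against 7.61, 8.41 and 8.49 in control arrays. Every CR array was below every control array, CR replicate 4 lowest, and the difference was -1.75 ± 0.50, or 3.38-fold lower in CR (limma adjusted p = 0.517). A dimmer probe set of Arntl differed by -0.65. Clock itself differed by -0.46 ± 0.23 with overlap. Rora, an activator of Arntl, averaged 11.18 in CR and 11.45 in control with no overlap, a difference of -0.27 ± 0.16. Its highest CR array, 11.389, lay barely under its lowest control array, 11.394, and CR replicate 4 was far lowest at 10.65. Further Rora probe sets above the filter differed by -0.39, -0.54 and 0.03. Npas2, a relative of Clock, differed by -0.12 ± 0.17. In all, 0 of the 4 tested activators and 6 of the 10 tested repressors had a positive difference, against 59.9% of all genes. The repressor count was thus at the share of all genes. Every CR array was the lower for 2 activators (50%, against 2.83% of all genes). Every CR array was the higher for 2 repressors (20%, against 6.29% of all genes). Rorb, Bhlhe41 and Fbxl21 were under the filter and were not tested.

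Among the clock's output factors, Dbp, a PAR bZIP activator of D-box genes, showed the widest gap upward. Its levels were 9.08, 9.27, 9.32 and 10.01 in CR arrays, against 8.28, 8.15 and 7.95 in control arrays. The lowest CR array was well above the highest control array, and the difference was 1.29 ± 0.34, a 2.45-fold higher level (limma adjusted p = 0.367). Tef, of the same family, averaged 9.61 in CR and 9.34 in control without overlap, and Hlf differed by 0.19 ± 0.21. Nfil3, which represses D-box genes, read 7.78, 8.17, 7.86 and 6.57 in CR arrays, against 8.15, 8.83 and 8.91 in control arrays. CR replicate 2 lay level with control replicate 1, and the difference was -1.04 ± 0.32 (limma adjusted p = 0.656). Noct, a phosphatase that cycles in many tissues, differed by -1.27 ± 0.52, Lonrf3 by -0.80 ± 0.28 and the deubiquitinase Usp2 by -0.50 ± 0.37, each lower in every CR array. Tspan4, a tetraspanin, was higher in every CR array, by 0.43 ± 0.14. The groups overlapped for the other clock genes. Bhlhe40 differed by -0.48, Klf10 by -0.41, Csnk1e by 0.17, Csnk1d by -0.14, Klf9 by -0.13, Nr1d2 by -0.05 and Wee1 by -0.05. For Klf9, Nr1d2, Wee1 and Npas2 the sign turned when 1 array was left out. Further Klf9 probe sets above the filter differed by -0.31, -0.28, -0.48 and 0.22. A further probe set differed by -0.30 for Npas2, 0.57 for Tef and -0.03 for Csnk1e.

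Promoter sequence is shown for 3 of these genes because their windows hold the letters of the elements named above. RefSeq windows (GRCm38.p6, 250 bases before to 50 after the start) were matched for 20 of the 25 tested clock genes. The motifs searched on both strands were the E-box CACGTG, the D-box as TTATGTAA or TTACGTAA, and the ROR element core TAGGTCA. An E-box occurred in the windows of 6 of those 20 genes, against 11.1% of the 10721 tested genes with a window, a D-box in 1 (0.877% of all) and a ROR core in 2 (2.4% of all). Ciart holds 3 E-boxes, the first of them 116 bases before the start, Per3 holds 2 D-boxes, and Nfil3 holds a ROR core on the opposite strand, just before its start. Capitals mark these letters, each sequence runs 5′ to 3′ along its gene, and a match is a description of letters and not a measured binding site.
Ciart, chr3:95882179-95882478, minus strand: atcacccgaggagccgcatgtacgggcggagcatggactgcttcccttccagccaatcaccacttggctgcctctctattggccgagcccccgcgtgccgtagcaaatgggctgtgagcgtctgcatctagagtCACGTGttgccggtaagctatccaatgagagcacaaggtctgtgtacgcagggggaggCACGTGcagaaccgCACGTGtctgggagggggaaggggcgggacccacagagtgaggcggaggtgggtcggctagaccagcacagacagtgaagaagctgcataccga
Per3, chr4:151044616-151044915, minus strand: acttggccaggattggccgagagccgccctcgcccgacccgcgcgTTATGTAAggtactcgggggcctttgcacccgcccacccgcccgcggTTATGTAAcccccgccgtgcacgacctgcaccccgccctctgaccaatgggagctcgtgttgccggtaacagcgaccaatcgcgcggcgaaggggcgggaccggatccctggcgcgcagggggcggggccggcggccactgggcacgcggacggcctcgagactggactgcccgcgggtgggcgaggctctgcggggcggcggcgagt
Nfil3, chr13:52980990-52981289, minus strand: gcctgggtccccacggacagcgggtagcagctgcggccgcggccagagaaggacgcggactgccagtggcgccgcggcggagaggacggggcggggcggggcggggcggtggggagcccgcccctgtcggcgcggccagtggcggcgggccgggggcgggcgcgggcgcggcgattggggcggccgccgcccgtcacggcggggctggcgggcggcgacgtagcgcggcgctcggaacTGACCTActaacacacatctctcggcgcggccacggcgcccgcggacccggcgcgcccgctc

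The question of whether these differences belonged to ZT8 was asked with the difference at ZT8 minus the mean difference at the 5 other times. No gene passed (limma, 0 of 13383, or 0%; 479 genes, 3.58%, at an unadjusted p under 0.05; smallest adjusted p 0.322). The 6 genes of smallest p were Mthfd1l, Per2, Ciart, Ccnq, Hes6 and Il17rd. For Per2 the diet difference at ZT8 exceeded that mean by 0.91, and over the day it was 0.02, 0.85, 0.96, 0.08, -0.61 and -0.10 at ZT 0, 4, 8, 12, 16 and 20. Dbp had differences of 0.30, 1.63, 1.29, -0.76, -1.08 and -0.19 in the same order. Both were thus higher in CR at ZT4 and ZT8 and lower in CR at ZT16, each with an SE of 0.17 to 0.34. Arntl ran the other way, with -1.20 at ZT4 and -1.75 at ZT8, and 0.76 at ZT12 and 0.83 at ZT16. In the means by time, Dbp stood highest at ZT8 in CR (9.42 ± 0.41, SD, n = 4) and highest at ZT12 in control (8.62 ± 0.57, SD, n = 4).

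**Figure D2:**
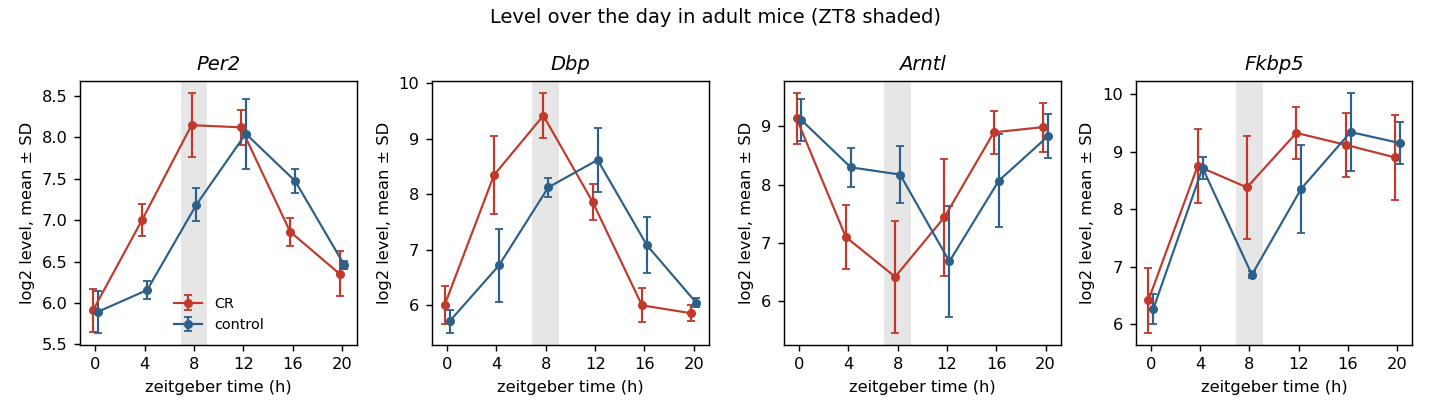
Mean log2 level ± SD of Per2, Dbp, Arntl and Fkbp5 in adult mice over zeitgeber time (h), CR in red and control in blue, 3 to 6 arrays per point, ZT8 shaded. At ZT8 the CR means of Per2, Dbp and Fkbp5 are above those of control by 0.96, 1.29 and 1.52, and that of Arntl is below by 1.75.

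Outside the clock, the genes of smallest p after Per2 were Ccnq, Ifi203, Hes6, Klk1 and D630045J12Rik, all with a limma adjusted p of 0.367. Ccnq, a cyclin that partners CDK10, read 6.09, 5.95, 6.03 and 6.21 in CR arrays, against 5.53, 5.34 and 5.65 in control arrays. The groups were apart, and the difference was 0.56 ± 0.14, against values of -0.12 to 0.11 at the other times. Mthfd1l, the mitochondrial enzyme that makes formate in one-carbon metabolism, was higher in every CR array by 0.53 ± 0.14. Ifi203, of the interferon-inducible p200 family, had levels of 5.37, 6.48, 5.35 and 5.27 in CR arrays, against 5.92, 7.24 and 7.37 in control arrays. CR replicate 2 lay above control replicate 1, and the difference was -1.22 ± 0.30. Klk1, a tissue kallikrein, was higher in every CR array by 0.78 ± 0.20. Ifi203 and Klk1 have close paralogs that their probe sets might also detect. D630045J12Rik, a gene of no established role, averaged 6.37 in CR and 6.91 in control, lower in every CR array.

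The next genes by p are given as chosen after their values were seen. Cd59a, an inhibitor of complement, averaged 9.73 ± 0.28 in CR (SD, n = 4) and 9.01 ± 0.16 in control (SD, n = 3), and every CR array was the higher. Kcnn4, a calcium-activated potassium channel, averaged 5.84 ± 0.12 in CR (SD, n = 4) and 6.57 ± 0.13 in control (SD, n = 3). Dxo, an RNA decapping exonuclease, and Pus1, a pseudouridine synthase, were higher in every CR array by 0.42 ± 0.11 and 0.54 ± 0.15. Dio2, the deiodinase that activates thyroid hormone, read 6.17, 6.61, 6.39 and 6.82 in CR arrays, against 8.01, 8.34 and 7.94 in control arrays. Its groups were more than 1 log2 unit apart, and the difference was -1.60 ± 0.55 (limma adjusted p = 0.672 with the spread taken from all arrays). In a fit of the 7 arrays alone it was the only gene past the threshold (limma adjusted p = 0.0479). Several of these genes differed about as much at other times. Cd59a differed by 0.74 at ZT0 and 0.94 at ZT12, Dxo by 0.42 at ZT0 and Dio2 by -1.81 at ZT0. Each of these had a limma adjusted p under 0.05 at that time. Kcnn4 and Pus1 differed by less at each of the 5 other times.

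Hormone and signalling genes were read from the glucocorticoid and Notch lists. Fkbp5, a co-chaperone of the glucocorticoid receptor that the hormone induces, had levels of 9.52, 7.33, 8.30 and 8.36 in CR arrays, against 6.87, 6.80 and 6.91 in control arrays. The CR arrays were spread over more than 2 log2 units while the control arrays lay together, all below, and the difference was 1.52 ± 0.40, or 2.86-fold higher in CR (limma adjusted p = 0.367). Tsc22d3 (GILZ), another induced gene, read 10.30, 9.44, 9.75 and 9.70 in CR arrays, against 9.10, 9.01 and 9.24 in control arrays. CR replicate 1 was the highest and CR replicate 2 the lowest of the CR arrays in both genes. CR replicate 1 is also the CR array in which Xist was below the Y-linked genes. Over the day, from ZT 0 to 20, the differences of Fkbp5 were 0.15, 0.03, 1.52, 0.97, -0.22 and -0.25. Ddit4 differed by 0.34 and Arrdc3 by 0.64, also without overlap, whereas Sgk1, Zbtb16 and Dusp1 differed by -0.09, -0.09 and -0.06. Of 17 tested glucocorticoid-induced genes, 9 had a positive difference, against 59.9% of all genes, and the median was 0.05, as over all genes. The differences in the list ran from -0.54 to 1.52. Of these 17, 4 (23.5%, against 6.29% of all genes) were higher in every CR array and 0 lower (2.83% of all genes). Hes1, a well-known target of Notch, had levels of 8.81, 9.29, 9.29 and 9.42 in CR arrays, against 8.20, 8.41 and 8.33 in control arrays. Hes6, a relative that counteracts Hes1, read 7.82, 7.64, 7.59 and 8.28 in CR arrays, against 6.89, 7.17 and 7.28 in control arrays. Both were higher in every CR array, by 0.89 ± 0.24 and 0.72 ± 0.18, while the 11 tested Notch pathway genes had a median of -0.01. At ZT0 and ZT12 Hes1 differed by 0.79 and 0.61, and Hes6 by 0.29 and -0.03.

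Several genes of inflammation and adhesion were lower in every CR array. Tnfaip3 (A20), an inhibitor of NF-kB that NF-kB itself induces, read 10.15, 10.16, 10.13 and 8.50 in CR arrays, against 10.90, 10.76 and 10.77 in control arrays. CR replicate 4 stood far below the rest, and the other CR arrays were still under all control arrays (difference -1.08 ± 0.29, limma adjusted p = 0.40). Icam1, an adhesion molecule for leukocytes, averaged 9.73 ± 0.28 in CR (SD, n = 4) and 10.50 ± 0.16 in control (SD, n = 3). Ptgs2 (COX-2), the inducible prostaglandin synthase, averaged 6.78 in CR and 7.79 in control. Nfkbia differed by -0.31 without overlap, and Cxcl1 by -0.90 with overlap. Of 19 tested inflammation genes, 4 had a positive difference, against 59.9% of all genes, with a median of -0.10, against 0.05. Every CR array was the lower for 4 of the 19 (21.1%, against 2.83% of all genes) and the higher for 0 (6.29% of all genes), and Il1b, Il33 and Ccl2 differed by -0.10, -0.11 and -0.09. Itgb6, the integrin subunit that activates TGF-beta at epithelia, read 6.71, 6.90, 7.07 and 6.90 in CR arrays, against 8.01, 8.70 and 7.95 in control arrays. It was the widest gap among the 16 tested junction genes (-1.33 ± 0.56), of which 3 had a positive difference, against 59.9% of all genes (5 without CR replicate 1), and the median was -0.14. Tjp1 (ZO-1) differed by -0.47, Cldn4 by -0.54 and Cdh1 by -0.23.

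**Figure D3:**
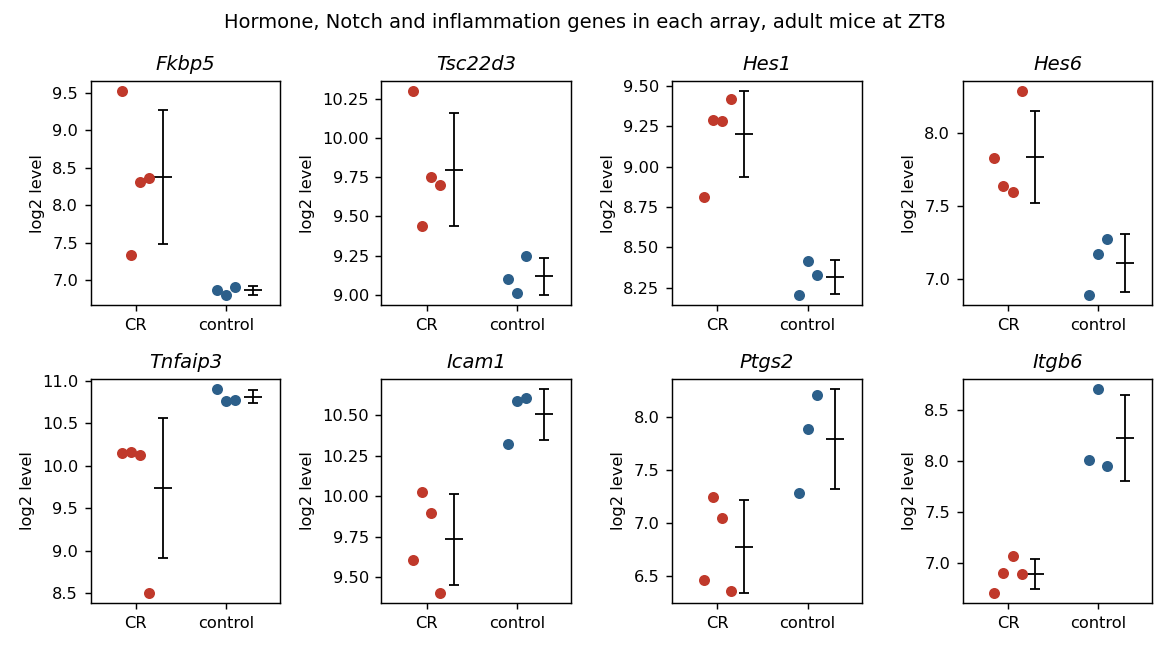
Log2 level of 8 genes in each array of adult mice at ZT8, CR on the left and control on the right of each panel; points are arrays (4 CR, 3 control), and bars beside them are the mean ± SD. Fkbp5, Tsc22d3, Hes1 and Hes6 are higher in every CR array, and Tnfaip3, Icam1, Ptgs2 and Itgb6 are lower, with 1 Tnfaip3 array at 8.50.

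Immediate early genes, which cell stress and tissue dissociation also induce, were mostly lower in CR as well. Of 22 tested, 4 had a positive difference, against 59.9% of all genes, and the median was -0.22. Every CR array was the lower for 2 of the 22 (9.09%, against 2.83% of all genes). Every CR array was the higher for 1 (4.55%, against 6.29% of all genes). Fosl1 averaged 9.85 in CR and 10.74 in control and Nr4a2 averaged 8.53 in CR and 9.26 in control, both without overlap, whereas Fos and Jun differed by 0.02 and -0.01. The mean level of the list was 10.85, 10.68, 10.60 and 10.32 in CR arrays, against 10.76, 10.79 and 10.89 in control arrays, lowest in CR replicate 4, and without that array 9 of 22 differences were positive. Their part in the differences of Tnfaip3, Icam1 and Ptgs2 was not tested.

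DNA replication genes were shifted together, by small amounts. Of 35 tested genes of licensing and synthesis, 34 had a positive difference, against 59.9% of all genes, and the median was 0.23, against 0.05 over all genes. In 7 of them, or 20% (6.29% of all genes), every CR array lay above every control array. Rfc3, a subunit of the clamp loader, read 8.99, 9.39, 9.35 and 9.75 in CR arrays, against 8.81, 8.80 and 8.93 in control arrays. Mcm7, of the replicative helicase, had levels of 7.84, 8.10, 8.25 and 8.15 in CR arrays, against 7.68, 7.64 and 7.61 in control arrays. Neither passed the threshold, with differences of 0.53 ± 0.17 and 0.44 ± 0.19 (limma adjusted p = 0.672 and 0.77). Gins4, Prim1 and Rfc2 differed by 0.45, 0.40 and 0.40 without overlap, Mcm3 and Mcm5 by 0.49 and 0.38 with overlap, and Pcna and Rrm2 by 0.06 and 0.01. The mean level of the list was 7.82, 8.25, 8.20 and 8.08 in CR arrays, against 7.73, 7.94 and 7.88 in control arrays, so CR replicate 1 lay among the control arrays. Leaving out each of the 7 arrays gave 30 to 34 positive differences, the fewest without control replicate 1.

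Mitotic genes did not share that shift. Of 25 tested, 3 had a positive difference, against 59.9% of all genes, and the median was -0.19, from Kif23 at -0.80 through Mki67 at -0.47 to Aurkb at 0.23, and the groups overlapped for every one of them. Their mean level ranged from 6.76 to 7.77 in CR arrays and from 7.18 to 7.69 in control arrays, and the number of positive differences was 1 without control replicate 2 and 11 without control replicate 3.

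The letters of the E2F element, through which E2F factors control replication genes, were searched as TTTCGCGC or TTTGGCGC on both strands. They occurred in the windows of 10 of the 28 replication genes with a RefSeq window, against 1.62% of the 10721 tested genes with one. The windows of Rfc3 and Mcm6, a further helicase subunit that differed by 0.24, are shown as examples. The match in Rfc3 lies 10 bases before the start, and those in Mcm6 lie 110, 106 and 47 bases before it. Capitals mark the matches, and in Mcm6 a pair of matches on opposite strands overlap.
Rfc3, chr5:151651159-151651458, minus strand: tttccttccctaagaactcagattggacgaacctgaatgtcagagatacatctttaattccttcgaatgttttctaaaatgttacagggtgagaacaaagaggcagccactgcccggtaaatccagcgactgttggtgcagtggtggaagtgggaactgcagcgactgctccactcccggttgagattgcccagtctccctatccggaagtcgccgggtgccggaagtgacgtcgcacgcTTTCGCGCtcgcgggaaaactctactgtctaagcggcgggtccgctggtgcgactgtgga
Mcm6, chr1:128359656-128359955, minus strand: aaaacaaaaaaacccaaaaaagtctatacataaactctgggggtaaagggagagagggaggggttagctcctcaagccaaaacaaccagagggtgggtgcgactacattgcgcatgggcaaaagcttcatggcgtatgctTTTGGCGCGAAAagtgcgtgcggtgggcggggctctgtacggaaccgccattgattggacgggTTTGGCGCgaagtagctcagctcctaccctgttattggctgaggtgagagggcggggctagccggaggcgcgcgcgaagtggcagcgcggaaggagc

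Genes of mitochondria and ribosomes showed the same kind of small, shared difference. Of 42 tested genes of oxidative phosphorylation, 40 had a positive difference, against 59.9% of all genes, the median was 0.22, and in 7 (16.7%, against 6.29% of all genes) every CR array was the higher. Cox5b, of cytochrome oxidase, read 11.47, 11.46, 11.47 and 11.66 in CR arrays, against 11.16, 11.25 and 11.38 in control arrays. Cyc1, of complex III, averaged 9.89 ± 0.15 in CR (SD, n = 4) and 9.60 ± 0.13 in control (SD, n = 3). The widest differences were those of Sdhd (0.50) and Ndufb5 (0.40), with overlap. The mean level of the list was 10.26, 10.33, 10.25 and 10.56 in CR arrays, against 9.98, 10.17 and 10.29 in control arrays, so control replicate 3 lay among the CR arrays and control replicate 1 lowest. Without control replicate 1, 35 of 42 differences were positive. All 14 tested genes of the tricarboxylic acid cycle had a positive difference, against 59.9% of all genes, with a median of 0.09. None of the 14 was higher in every CR array, against 6.29% of all genes. Without control replicate 1, 8 of the 14 were positive.

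Of 33 tested ribosomal protein genes, 32 had a positive difference, against 59.9% of all genes, 13 (39.4%, against 6.29% of all genes) were higher in every CR array, and the median was 0.10. Rps19 averaged 10.67 in CR and 10.28 in control, and Rpl13 averaged 10.94 in CR and 10.62 in control. The list's mean level was 11.74, 11.72, 11.70 and 11.86 in CR arrays, against 11.62, 11.63 and 11.64 in control arrays, and 31 or 32 differences stayed positive when any 1 array was left out. These genes have many pseudogenes, which their probe sets might also detect.

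Fatty acid oxidation genes, which fasting is known to induce in liver and muscle, had 25 of 30 positive differences, against 59.9% over all genes, and a median of 0.18, against 0.05. In 6 of them (20%, against 6.29% of all genes) every CR array was the higher. With each array left out in turn, 21 to 27 differences were positive, the fewest without control replicate 1. Eci2, an enoyl-CoA isomerase, read 8.79, 8.92, 9.09 and 9.48 in CR arrays, against 7.89, 8.54 and 8.47 in control arrays. Cpt2 and Cpt1a, the carnitine palmitoyltransferases that bring fatty acids into mitochondria, differed by 0.56 and 0.41 without overlap, and Acadvl and Acadm, which begin their oxidation, by -0.01 and 0.04. Of 14 tested interferon response genes, 11 had a positive difference, against 59.9% of all genes, with a median of 0.15 and a range of -0.40 to 0.78. Usp18 (0.78 ± 0.37) and Psmb9 (0.44 ± 0.15) were higher in every CR array, 2 of the 14 (14.3%, against 6.29% of all genes). Usp18 also differed by 0.81 at ZT12 and 0.71 at ZT20. The 9 lists of markers of other cell types in skin had medians of -0.05 to 0.15, and the 22 lists not described here, glycolysis, heat shock and the keratinocyte classes among them, of -0.12 to 0.14.

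**Figure D4:**
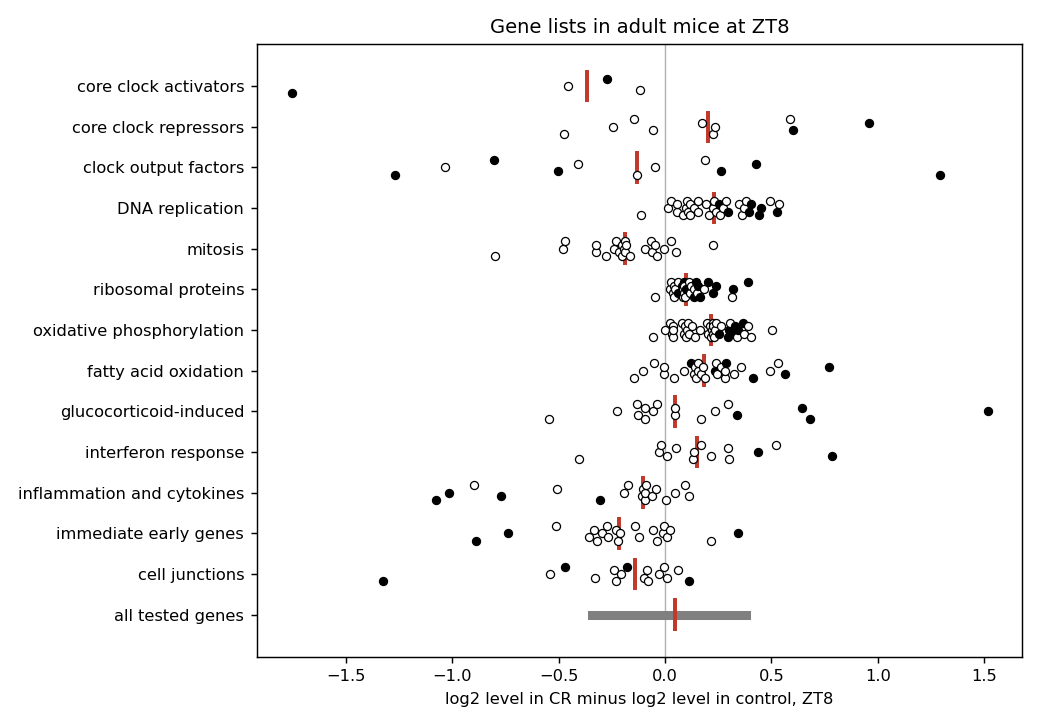
Difference of log2 level, CR minus control, at ZT8 in adult mice for each tested gene of 13 lists; each point is a gene, filled where the 4 CR arrays and 3 control arrays do not overlap, and the red line is the list's median. The grey bar spans the 5th to 95th percentile of all 13383 genes, and DNA replication, oxidative phosphorylation and ribosomal protein genes lie almost wholly right of 0.

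Aged mice at the same hour gave a comparison with arrays that share no sample with these. Of the 20 genes of smallest p in adult mice, 19 had a difference of the same sign in aged mice, against 55.7% of all genes. At an unadjusted p under 0.05 (limma) 8 of them did so, and 4.29% of all genes reached that p there in either direction. All groups share 1 estimate of the spread per gene, so a small spread lowers p at both ages. The 4.29% is therefore not a like baseline for these 8. Per2 read 7.85, 8.29, 8.50 and 8.45 in aged CR arrays, against 7.46, 7.11 and 7.49 in aged control arrays. The difference was 0.96 ± 0.20 in adult mice, beside 0.92 ± 0.20 in aged mice. Fkbp5 had 9.38, 9.30, 9.85 and 9.68 in aged CR arrays, against 7.72, 7.83 and 7.90 in aged control arrays, a difference of 1.74 ± 0.40. Cd59a, Klk1 and Ifi203 differed by 0.73, 0.64 and -1.13 in aged mice, also near their adult values. For the gene groups, the median difference in aged mice was -0.03 for DNA replication, -0.08 for oxidative phosphorylation and 0.00 for ribosomal protein genes, and the difference between ages was not tested for lists.

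The difference between ages was tested gene by gene, and no gene passed (limma, 0 of 13383, or 0%; 245 genes, 1.83%, at an unadjusted p under 0.05; smallest adjusted p 0.391). The 6 genes of smallest p were H2-Eb1, H2-Ab1, Xaf1, Kctd17, Kdelr3 and Cd74. H2-Eb1, a class II antigen-presenting molecule, read 7.81, 9.03, 7.73 and 8.34 in adult CR arrays, against 7.63, 7.59 and 7.89 in adult control arrays, while in aged mice every CR array was below every control array (-0.65 ± 0.19). H2-Ab1, a further class II molecule, and Cd74, the invariant chain that chaperones them, were likewise highest in adult CR replicate 2, at 9.60 and 7.33. Of 11 tested markers of Langerhans cells and macrophages, 10 were positive in adult mice, against 59.9% of all genes, and 7 were without CR replicate 4. The groups overlapped for every one of these markers. Their mean level was 6.43 to 6.99 in CR arrays and 6.47 to 6.57 in control arrays, highest in CR replicate 2. Cd207, which defines Langerhans cells, was under the filter, and the part of these cells in the result was not tested. Xaf1, an interferon-inducible gene, averaged 7.23 in adult CR and 6.49 in adult control. Kctd17, an adaptor of a ubiquitin ligase, differed by 0.33 in adult and -0.60 in aged mice, and Kdelr3, a receptor that returns proteins to the endoplasmic reticulum, by -0.42 in adult and 0.20 in aged mice. For Dbp the difference was 1.29 ± 0.34 in adult and -0.06 ± 0.34 in aged mice, a gap of 1.35 at an unadjusted p of 0.00543 that did not pass the adjustment.

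**Figure D5:**
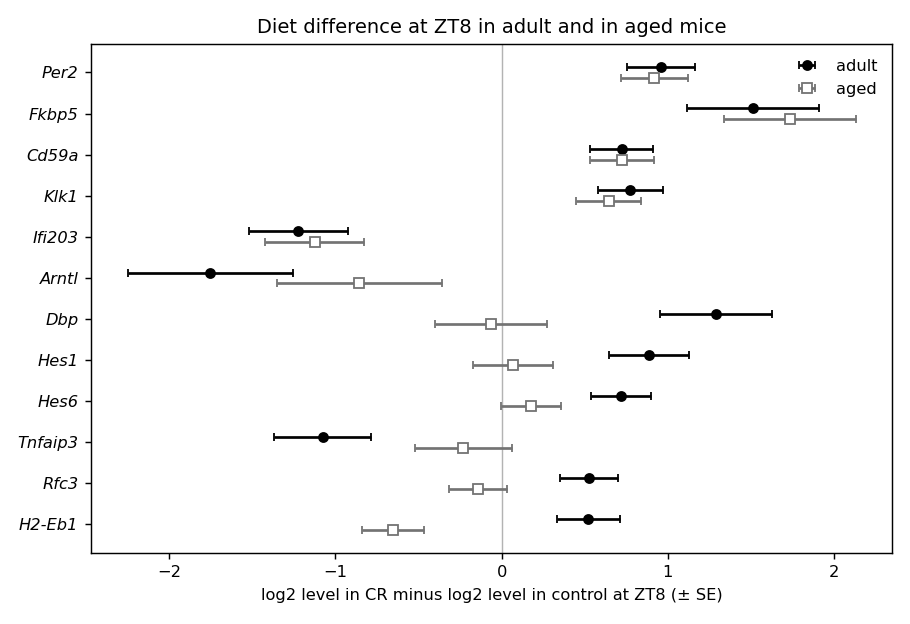
Difference of log2 level, CR minus control, at ZT8 for 12 genes in adult mice (filled circles) and aged mice (open squares), with bars of ± 1 SE (4 CR and 3 control arrays at each age). Per2, Fkbp5, Cd59a, Klk1 and Ifi203 lie close together at both ages, whereas Dbp, Hes1, Tnfaip3, Rfc3 and H2-Eb1 lie apart, which for no gene passed the test of the difference.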

How the data were processed

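The deposited values are log2 expression levels of Affymetrix mouse PM arrays, made by the authors with RMA, per the submitters' processing notes; the RMA version is not given in the sources used here. Per the labels' protocols, 25 ng of RNA went into each amplification (17 cycles), of which 8 µg cDNA was labelled. The values were used as deposited. Of 45140 probe sets, 28898 had a single symbol in GEO's platform annotation, 551 had several and 15691 had none. The brightest probe set stood for each of 17097 genes, 103 control probe sets were left out, and genes with a mean under the 30th percentile of probe set means (4.73) were not tested. Background not removed by RMA makes differences of dim genes too small. Depth has no meaning for arrays, and their number limits the precision: the median SE of a difference was 0.185.

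One mean per group (24 groups) was fitted to all arrays with limma 3.58.1 in R 4.3.3, and p values were adjusted by Benjamini-Hochberg over all 13383 genes. All groups share 1 estimate of the spread. The 3 comparisons were CR against control at ZT8 in adult mice, that difference minus the mean of the 5 other times, and that difference minus the one in aged mice. Per the labels, a collection day served 1 time point only, and the day of an array is not labelled, so day was not fitted. Named are the genes past the threshold or, where there are none, the 6 of smallest p, and all tested clock genes; other list genes and the next 14 by p were chosen after their values were seen. Lists were 46, with 715 tested genes, described by counts and medians. The members and lists were chosen with earlier results of these data known. Alternatives were the arrays in the fit, scaling, filter, probe set summary, trend, array weights, replicate block, covariates for Xist and background, each array left out and other thresholds.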

Additional observations from a re-analysis of the deposited data

Results flagged for a closer look

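In the group of 4 CR arrays, 1 array stood far from the other 3 by Dixon's ratio in 13 of 92 genes and 2 of 46 list means, where chance marks about 5% of groups. In 9 of the 13 genes it was CR replicate 4. That array read 7.57 for Per2 (the other CR arrays 8.28 to 8.42), 10.65 for Rora (11.32 to 11.39), 5.16 for Lipe (5.29 to 5.31), 11.33 for Atf3 (12.19 to 12.27), 7.44 for Tjp1 (8.08 to 8.18) and 8.50 for Tnfaip3 (10.13 to 10.16), and it was the highest with 11.66 for Cox5b, 10.12 for Cyc1 and 7.45 for Pus1. CR replicate 2 stood apart with 6.48 for Ifi203 (5.27 to 5.37), 8.89 for Nr4a2 (8.36 to 8.44) and 5.75 for Smad7 (5.42 to 5.44). CR replicate 3 had 7.65 for Csnk1e (7.24 to 7.27). CR replicate 1 had a mean of 8.08 over cholesterol synthesis genes (7.53 to 7.61) and of 8.26 over genes of oxidative stress and NRF2 (8.45 to 8.48).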

How the results depend on the processing

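No gene passed the adjusted threshold for CR against control at ZT8 under most alternatives, and the exceptions were few genes or rested on array weights. The count was 1 with the 7 arrays alone (Dio2), 2 with the mean over the probe sets of a gene (Ifi203 and Hes6, adjusted p = 0.0247), and 1 with array weights by limma's default method (Per2, adjusted p = 0.0153), which stopped before it converged. With weights by the gene-by-gene method, chosen after the data had been seen, the count was 881. The weight of control replicate 2 was 0.0247 by one method and 5.68 by the other, and the cause of the gap between these counts was not tested further. For ZT8 against the 5 other times the weighted counts were 2 and 203, and for adult against aged mice the gene-by-gene count was 2. Leaving out each array gave counts of 0 to 1 for CR against control (1 without CR replicate 4, Per2; 1 without control replicate 1, Ifi203, adjusted p = 0.0163) and of 0 to 1 for adult against aged mice (1 without CR replicate 3, H2-Eb1, adjusted p = 0.041). With the replicate block, which leaves CR replicate 4 without a partner, the count was 0; same-numbered arrays of both diets had correlations of -0.373, 0.451 and -0.515 between their deviations, so the numbers were not taken as pairs. Over the fits without 1 array the list medians ranged from 0.17 to 0.32 for DNA replication, 0.11 to 0.28 for oxidative phosphorylation, 0.07 to 0.12 for ribosomal proteins, -0.39 to -0.03 for mitosis and -0.24 to -0.06 for inflammation. Differences near 0 turned sign: Nr1d2 was 0.018 and Wee1 0.073 with default weights, and with the block Nr1d2 was 0.047, Klf9 0.0012 and Wee1 0.052. Over the fits without 1 array, Nr1d2 ranged from -0.108 to 0.047, Klf9 from -0.241 to 0.0012 and Wee1 from -0.153 to 0.052 (each highest without CR replicate 4), and Npas2 from -0.220 to 0.018 (positive without CR replicate 2 or control replicate 1).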
